A study of Mus musculus with 3 samples.

Results

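The 39 interferon-stimulated genes described here were taken by gene symbol from a list of known interferon response genes, a rule that uses no measured value, although the list was drawn up with earlier results of these data known. All 39 were found among the 17222 gene symbols of the bone marrow (BM) transcriptome, and 38 of them were expressed, which here means a level of 1 RPKM or more on average over the 3 libraries (RPKM, reads per kilobase of gene length, scaled to the reads counted on all genes). The study asked how leukocyte cell-derived chemotaxin 2 (LECT2), a cytokine made by the liver, acts on haematopoietic stem cells and their BM niche. Male wild-type C57BL/6 mice aged 6-8 weeks received recombinant LECT2 under the skin at 300 μg per kg of body weight each day for 3 or 5 days, and the group called 0 days had no LECT2 injections by its labels. BM was flushed from femur, tibia, pelvis and humerus, so every value is an average over the mixed cells collected. The labels and methods describe flushed BM cells, whereas a supplementary legend of the study speaks of mononuclear cells, and which of these was sequenced cannot be told apart here. There was 1 library per time point, and the number of mice behind a library is not given in the sources used here.

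Reads on genes numbered 15523952 (0 days), 15146983 (3 days) and 15514673 (5 days). On a gene of 1000 bases, 1 read was worth 0.0644, 0.0660 and 0.0645 RPKM. A change is given as the log2 ratio of RPKM + 0.1, and its 95% interval comes from the reads of both libraries by the exact Clopper-Pearson method. These intervals cover counting error only, with no replicate check, because no spread between mice was measured and no p-value was computed. The 3 comparisons share libraries and are not independent of each other. The 10 genes with the most reads took 12.5%, 10.4% and 5.38% of the reads, and the median log2 ratio of all 11129 expressed genes was 0.10 at 3 days against 0 days, 0.31 at 5 days against 0 days and 0.25 at 5 days against 3 days. The ratios of all genes also followed gene length, with longer genes higher in the LECT2 libraries. Each result is therefore read against these medians, and values after TMM scaling (which centres most genes on 0) and after removal of the length trend are given beside many of the values, and the plot of the log2 ratios shows the latter for every expressed member.

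Interferon-stimulated genes are the effector arm of the antiviral response. Type I interferons signal through the receptor chains Ifnar1 and Ifnar2 and the kinases Jak1 and Tyk2 to a complex that contains Stat2 and Irf9 and binds the interferon-stimulated response element in promoters, whereas interferon-gamma acts mainly through the gamma-activated site. Many of these genes are also expressed at a basal level in unstimulated marrow, where interferon signalling is known to influence haematopoietic stem cells and myeloid differentiation.

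The promoters of the members were examined first, because the response element is a sequence through which interferons act on many of these genes. Of the 39 genes, 30 had a promoter entry in the RefSeq table (GRCm38.p6, 250 bases before to 50 bases after the start). The letters GAAANNGAAA, the core of the interferon-stimulated response element, were found on either strand in 16 of the 30 (53.3%), against 3.99% of the 27025 genes with an entry. The letters TTCNNNGAA, the gamma-activated site, which read the same on both strands, were found in 8 of the 30 (26.7%), against 9.55% of all genes. These matches describe letters in a window and not occupied sites. The 6 stretches of 60 bases printed here belong to members that hold the letters and were at least 2-fold lower in a comparison, and the capitals mark the response element letters, in either orientation. All lie upstream of the start.
Isg15, chr4:156200856-156200915, minus strand: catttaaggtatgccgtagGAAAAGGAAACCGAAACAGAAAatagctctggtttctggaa
Ifit1, chr19:34640769-34640828, plus strand: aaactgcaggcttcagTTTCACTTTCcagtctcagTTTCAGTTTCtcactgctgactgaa
Ifit3, chr19:34583365-34583424, plus strand: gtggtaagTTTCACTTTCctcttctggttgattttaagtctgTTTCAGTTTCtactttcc
Rsad2, chr12:26456538-26456597, minus strand: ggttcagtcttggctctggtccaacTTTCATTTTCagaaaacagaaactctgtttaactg
Oas3, chr5:120777700-120777759, minus strand: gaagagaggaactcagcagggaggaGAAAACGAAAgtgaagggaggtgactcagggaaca
Bst2, chr8:71537565-71537624, minus strand: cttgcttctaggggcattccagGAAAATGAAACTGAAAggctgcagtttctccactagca
Isg15 holds 3 overlapping matches in this stretch, Ifit1, Ifit3 and Bst2 hold 2 each, and Rsad2 and Oas3 hold 1 each. The matches begin 78 bases before the start in Isg15, 104 in Ifit1, 156 in Ifit3, 120 in Rsad2, 75 in Oas3 and 130 in Bst2. The build that the submitters' processing notes name for the counts is mm8, so these positions belong to the promoter table and not to the counted gene models.

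The members did not move as a block. One set, with Rsad2, Isg15, Ifit1, Ifit3, Rtp4, Oas3, Oasl1 and Oasl2, was lower at 5 days than at 3 days, while Mx1, Gbp3, Dtx3l, Parp14 and Ifih1 were higher at 5 days than at 0 days, and Bst2 was lower already at 3 days. The median log2 ratio over the 38 members was 0.15 at 3 days against 0 days, 0.05 at 5 days against 0 days and -0.09 at 5 days against 3 days. The medians of all genes were 0.10, 0.31 and 0.25 in the same order. At 5 days against 0 days the members' median was -0.26 with TMM scaling and -0.35 without the length trend, where the medians of all genes were 0.01 and 0.00, so that the members lay below all genes in these settings as well as with deposited RPKM. Summed over the 39 genes the level was 1566, 1610 and 1252 RPKM, of which Ifitm3 alone gave 695, 678 and 525 RPKM.

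**Figure D1:**
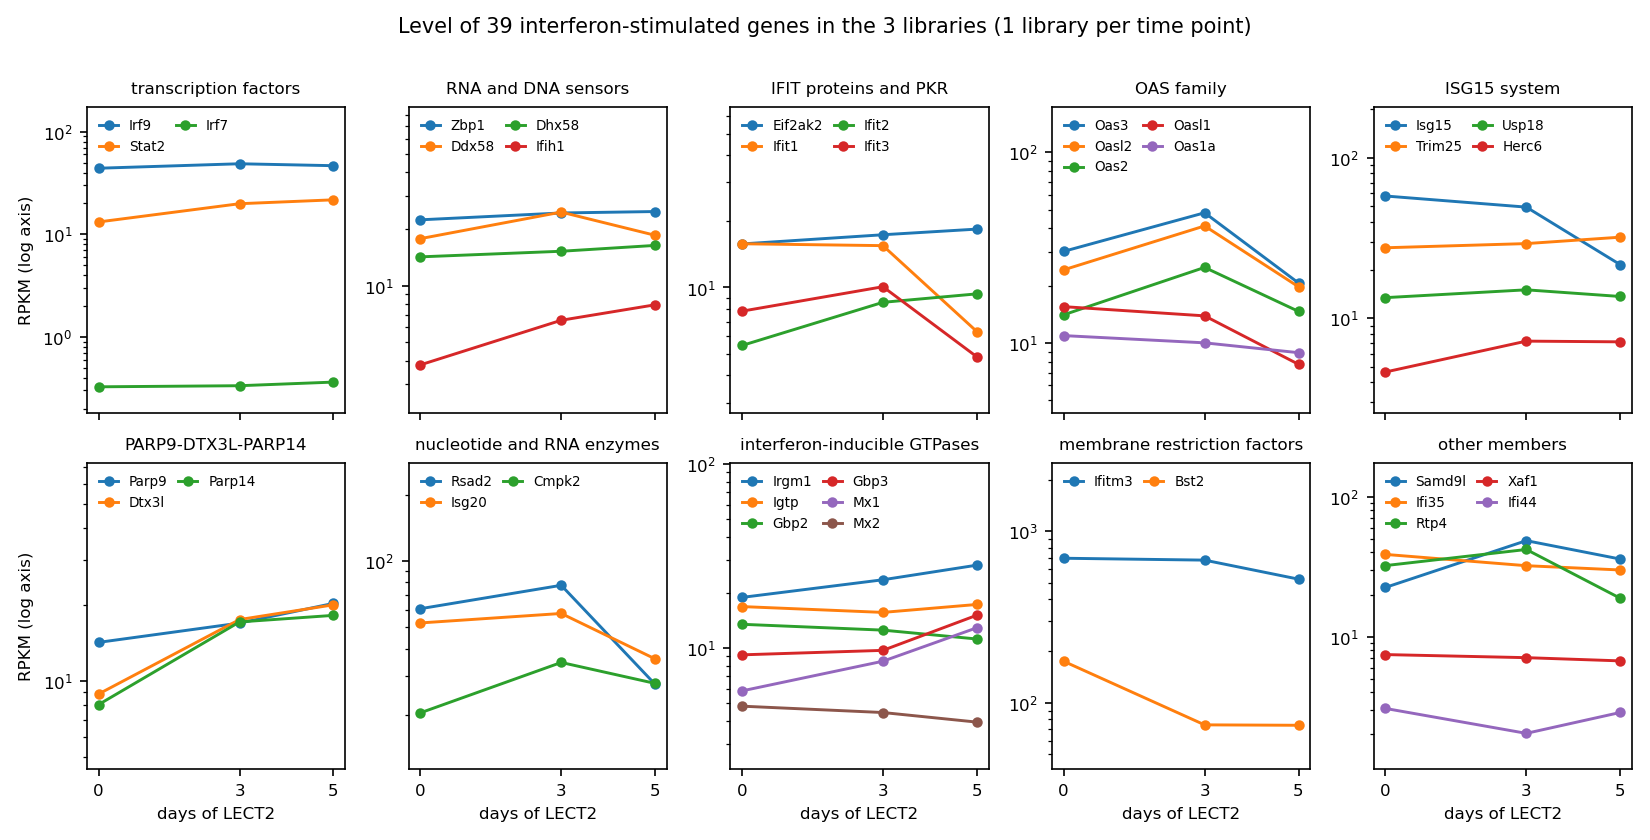
Level of each of the 39 genes in RPKM (log axis) against days of LECT2, in 10 panels by role; each point is 1 library, so there are no error bars. The OAS panel shows the summit of Oas2, Oas3 and Oasl2 at 3 days, the PARP9-DTX3L-PARP14 panel shows levels that were higher at 3 and 5 days than at 0 days, and Irf7 lies at about 0.3 RPKM, below all other members.

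Of the members that carry interferon signals to the nucleus, Stat2 was higher in both LECT2 libraries and Irf9 was nearly level. Irf9, the DNA-binding subunit of the interferon complex, was at 44.0, 48.7 and 46.6 RPKM, and its log2 ratio at 5 days against 0 days was 0.08 (95% interval -0.01 to 0.18), and -0.23 with TMM scaling. Stat2, its signalling partner, was at 13.2, 19.9 and 21.7 RPKM. It had a log2 ratio of 0.71 at 5 days against 0 days (95% interval 0.60 to 0.84), and of 0.10 without the length trend. Irf7, the factor that amplifies interferon production, was listed in 2 rows and its higher row held only 9, 9 and 10 reads, or 0.326, 0.334 and 0.362 RPKM. The 541 rows of symbols with more than 1 row had a median mean level of 0.0886 RPKM, against 4.36 RPKM for symbols with 1 row, so the level listed for Irf7 cannot be compared with those of the other members, and no change of Irf7 is read from it.

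Among the sensors of foreign nucleic acid, Ifih1 was the one with a 2-fold difference. Ifih1 (MDA5, which detects long double-stranded RNA) was at 3.79, 6.54 and 7.91 RPKM. Its log2 ratio at 5 days against 0 days was 1.04 (95% interval 0.87 to 1.25), just past 2-fold, and remained positive at 0.74 with TMM scaling and 0.33 without the length trend. Ddx58 (RIG-I, which detects RNA ends with a triphosphate) was highest at 3 days, with 17.7, 24.5 and 18.5 RPKM. Its log2 ratio was 0.47 at 3 days against 0 days (95% interval 0.37 to 0.57) and 0.06 at 5 days against 0 days (95% interval -0.05 to 0.17). Dhx58 (LGP2, a regulator of both) was at 14.2, 15.2 and 16.3 RPKM, with a log2 ratio of 0.20 at 5 days against 0 days (95% interval 0.03 to 0.37). Zbp1, which senses Z-form nucleic acids, was at 22.3, 24.3 and 24.7 RPKM, with a log2 ratio of 0.15 (95% interval -0.00 to 0.30). The ratios of Ddx58, Dhx58 and Zbp1 at 5 days against 0 days were below 0 with TMM scaling and without the length trend.

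The IFIT genes, which encode RNA-binding proteins that block the translation of foreign RNA and lie beside each other on chromosome 19, split at 5 days. Ifit1 was at 15.8, 15.5 and 6.30 RPKM. The first 2 libraries were alike and the third stood 2.43-fold below the second, a log2 ratio of -1.28 (95% interval -1.51 to -1.09). Ifit3 was at 7.80, 10.1 and 4.84 RPKM, highest at 3 days and lowest at 5 days, with a log2 ratio of -1.04 at 5 days against 3 days (95% interval -1.35 to -0.77) and -0.68 at 5 days against 0 days (95% interval -0.99 to -0.39). Ifit2 went the other way, with 5.45, 8.56 and 9.35 RPKM and a log2 ratio of 0.77 at 5 days against 0 days (95% interval 0.58 to 0.98). The lower level of Ifit1 and Ifit3 and the higher level of Ifit2 at 5 days against 0 days kept their direction with TMM scaling (-1.62, -0.98 and 0.46) and without the length trend (-1.67, -0.85 and 0.20). Eif2ak2 (PKR, the RNA-activated kinase that halts translation) was at 15.8, 17.4 and 18.4 RPKM, with a log2 ratio of 0.22 (95% interval 0.10 to 0.34) that turned to -0.08 with TMM scaling.

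Of the OAS family, Oas3, Oasl2 and Oas2 were highest at 3 days. Oas1a, Oas2 and Oas3 make the oligoadenylates that activate RNase L, and Oasl1 and Oasl2 are related proteins, of which Oasl1 is known to restrain the translation of Irf7. Oas3 was at 30.3, 48.2 and 20.7 RPKM, Oasl2 at 24.2, 41.2 and 19.7 RPKM and Oas2 at 14.1, 24.9 and 14.7 RPKM. At 3 days against 0 days their log2 ratios were 0.67 (95% interval 0.60 to 0.75), 0.76 (95% interval 0.66 to 0.87) and 0.82 (95% interval 0.70 to 0.95), all above 0 also without the length trend. At 5 days against 3 days they were -1.22 (95% interval -1.31 to -1.14), -1.06 (95% interval -1.17 to -0.95) and -0.76 (95% interval -0.89 to -0.64). The 5-day level of Oas2 lay at its 0-day level, with a log2 ratio of 0.06 (95% interval -0.08 to 0.20) that turned to -0.25 with TMM scaling, whereas Oas3 and Oasl2 went below theirs, with log2 ratios of -0.55 (95% interval -0.65 to -0.46) and -0.29 (95% interval -0.42 to -0.17). Oasl1 lacked the summit at 3 days, with 15.5, 13.9 and 7.74 RPKM. Its log2 ratio at 5 days against 0 days was -0.996 (95% interval -1.23 to -0.79), a fold of 1.99 that lies just short of the 2-fold line, and -1.30 with TMM scaling. Oas1a was at 10.9, 10.03 and 8.91 RPKM, a log2 ratio of -0.29 at 5 days against 0 days (95% interval -0.54 to -0.06). Summed over the 5 genes the level was 95.03, 138 and 71.7 RPKM.

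With deposited RPKM, Isg15 itself was the member with the most negative log2 ratio at 5 days against 0 days, while the other genes of its system were not lower by as much. Isg15, a ubiquitin-like modifier that is among the most strongly interferon-induced genes, was at 57.8, 49.3 and 21.6 RPKM. The 5-day library was 2.67-fold below the 0-day library, a log2 ratio of -1.42 (95% interval -1.64 to -1.21), and 2.28-fold below the 3-day library. As Isg15 is short, at 756 bases, the value at 5 days against 0 days was also taken without the length trend, where it was -1.01. Usp18, the protease that removes Isg15 and dampens interferon receptor signalling, was at 13.4, 15.04 and 13.7 RPKM, with a log2 ratio of 0.02 (95% interval -0.19 to 0.23), and -0.28 with TMM scaling. Herc6, the main Isg15 ligase of the mouse, was at 4.62, 7.20 and 7.13 RPKM, with a log2 ratio of 0.61 (95% interval 0.44 to 0.81), of which -0.07 was left without the length trend. Trim25, a ubiquitin ligase that acts on RIG-I, was at 27.5, 29.2 and 32.0 RPKM, with a log2 ratio of 0.22 (95% interval 0.14 to 0.30) that turned to -0.09 with TMM scaling.

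Dtx3l and Parp14 were about 2-fold higher in both LECT2 libraries. Dtx3l is a ubiquitin ligase that works in a complex with Parp9, and Parp14 is an ADP-ribosyltransferase of the macrophage response to interferon. Dtx3l was at 8.85, 17.4 and 19.95 RPKM, and against 0 days its log2 ratio was 0.97 (95% interval 0.85 to 1.11) after 3 days and 1.16 (95% interval 1.04 to 1.30) after 5 days. Parp14 was at 8.04, 17.1 and 18.1 RPKM, with log2 ratios of 1.08 (95% interval 0.97 to 1.20) and 1.16 (95% interval 1.06 to 1.29). Both genes are long, at 5181 and 7251 bases, and at 5 days against 0 days 0.48 and 0.35 remained without the length trend, so both stayed higher but neither stayed past 2-fold. Parp9 was at 14.2, 16.9 and 20.2 RPKM, a smaller difference with a log2 ratio of 0.51 at 5 days (95% interval 0.38 to 0.65), and -0.02 without the length trend.

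Rsad2 showed the largest difference of a member between 3 and 5 days. Rsad2 (viperin), which makes a chain-terminating nucleotide that blocks viral RNA synthesis, was at 60.7, 77.6 and 27.5 RPKM, from 3568, 4448 and 1617 reads. Its log2 ratio was 0.35 at 3 days against 0 days (95% interval 0.29 to 0.42), -1.14 at 5 days against 0 days (95% interval -1.23 to -1.06) and -1.49 at 5 days against 3 days (95% interval -1.58 to -1.41). Rsad2 thus stood highest at 3 days and lowest at 5 days, and without the length trend the last 2 values were -1.69 and -1.79. Cmpk2, the nucleotide kinase encoded beside Rsad2, did not share the low level at 5 days. It was at 20.4, 34.6 and 27.8 RPKM, with log2 ratios of 0.76 at 3 days (95% interval 0.65 to 0.87) and 0.44 at 5 days (95% interval 0.33 to 0.56) against 0 days, the latter -0.03 without the length trend. Isg20, an RNA exonuclease, was at 52.3, 57.8 and 35.9 RPKM, with a log2 ratio of -0.54 at 5 days against 0 days (95% interval -0.69 to -0.39).

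Among the interferon-inducible GTPases, Mx1, Gbp3 and Irgm1 were higher at 5 days and Gbp2, Mx2 and Igtp were not. Mx1, a dynamin-like antiviral GTPase for which C57BL/6 mice carry a defective allele, was at 5.85, 8.47 and 12.9 RPKM. Each library was higher than the one before it, and the log2 ratio at 5 days against 0 days was 1.13 (95% interval 0.94 to 1.34), with 0.82 after TMM scaling and 0.66 without the length trend. Gbp3, a guanylate-binding protein, was at 9.18, 9.71 and 15.1 RPKM, with a log2 ratio of 0.63 at 5 days against 3 days (95% interval 0.45 to 0.82). Irgm1, which regulates the GTPases that attack pathogen vacuoles and is known to be needed for normal stem cell function, was at 18.8, 23.5 and 28.2 RPKM, with a log2 ratio of 0.58 at 5 days against 0 days (95% interval 0.44 to 0.73). These 3 genes stayed above 0 at 5 days against 0 days in each scaling. Igtp, an effector GTPase, was at 16.8, 15.6 and 17.2 RPKM, with a log2 ratio of 0.04 (95% interval -0.14 to 0.21), and -0.27 with TMM scaling. Gbp2 was at 13.5, 12.5 and 11.2 RPKM, with a log2 ratio of -0.26 (95% interval -0.45 to -0.08). Mx2 was at 4.83, 4.46 and 3.96 RPKM, and the interval of its log2 ratio included 0 in all 3 comparisons. Gene copies with shared sequence (Mx1 and Mx2, the Gbp, Ifit, Ifitm and Oas1 genes) are uncertain to the extent that the counting could split their reads, which the sources used here do not state.

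Ifitm3 was the most abundant member in each library, and Bst2 was lower in both LECT2 libraries. Ifitm3, which keeps enveloped viruses from fusing in endosomes, ranked above 99.2% (0 days), 99.5% (3 days) and 99.3% (5 days) of the genes that had reads. Against 0 days its log2 ratio was -0.04 (95% interval -0.09 to 0.01) after 3 days and -0.40 (95% interval -0.46 to -0.35) after 5 days. Ifitm3 is the shortest member, at 648 bases, and without the length trend the last value turned to 0.10. Bst2 (tetherin, which holds budding virions to the cell and is used as a surface marker of mouse plasmacytoid dendritic cells) was at 174, 74.3 and 73.9 RPKM, from 2345, 975 and 993 reads. It was 2.34-fold lower at 3 days and 2.36-fold lower at 5 days, log2 ratios of -1.23 (95% interval -1.34 to -1.12) and -1.24 (95% interval -1.35 to -1.13), with no further difference between 3 and 5 days (-0.01, 95% interval -0.14 to 0.12). Bst2 is also short, at 866 bases, and -0.80 and -0.92 remained without the length trend, lower but within 2-fold.

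Of the remaining 5 members, Samd9l was higher at 3 days and Rtp4 lower at 5 days. Samd9l, a growth-restraining antiviral protein of myeloid cells, was at 22.5, 48.5 and 35.8 RPKM, with log2 ratios of 1.11 at 3 days (95% interval 1.03 to 1.19) and 0.67 at 5 days (95% interval 0.59 to 0.76) against 0 days. Without the length trend 0.69 and -0.02 were left, so the higher level at 3 days kept its direction and that at 5 days did not. Rtp4, a zinc finger protein that limits viral RNA replication, was at 32.2, 42.0 and 18.8 RPKM, with log2 ratios of -0.77 at 5 days against 0 days (95% interval -0.94 to -0.61) and -1.15 against 3 days (95% interval -1.32 to -0.997). Ifi35 was at 38.7, 32.1 and 29.95 RPKM, with a log2 ratio of -0.37 at 5 days against 0 days (95% interval -0.52 to -0.22). Xaf1, known as a binding partner of the inhibitor of apoptosis XIAP, was at 7.45, 7.08 and 6.71 RPKM, with a log2 ratio of -0.15 (95% interval -0.39 to 0.09). Ifi44 was at 3.07, 2.04 and 2.87 RPKM from 139, 90 and 130 reads, lowest at 3 days.

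The question of whether LECT2 changed the interferon-stimulated genes as a group was addressed with counts past 2-fold. At 3 days against 0 days, Parp14 and Samd9l were at least 2-fold higher, 2 of 38 members, against 4.08% of all genes with at least 1 RPKM in either library, and Bst2 was at least 2-fold lower, 1 of 38, against 2.37%. With TMM scaling Samd9l alone was 2-fold higher (3.09% of all genes) and Bst2 alone 2-fold lower (3.19%). Without the length trend no member was past 2-fold, against 2.58% of all genes higher and 1.79% lower. The counts at 3 days thus lay near those of the transcriptome as a whole.

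At 5 days against 0 days, Dtx3l, Ifih1, Mx1 and Parp14 were at least 2-fold higher, 4 of 38 members, against 15.5% of all genes. Bst2, Ifit1, Isg15 and Rsad2 were at least 2-fold lower, again 4 of 38, against 5.84%. None of the 4 higher members stayed past 2-fold in the other scalings: 0 members were higher with TMM scaling, against 7.13% of all genes, and 0 without the length trend, against 5.03%. The members lower by 2-fold numbered 6 with TMM scaling, with Oasl1 and Rtp4 added, against 10.1% of all genes. Without the length trend there were 5, namely Ifit1, Isg15, Oas3, Oasl1 and Rsad2, against 7.56%. Ifit1, Isg15 and Rsad2 were in each of these 3 sets.

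Between 3 and 5 days the differences past 2-fold went one way. Above 0 were 15 of 38 members, beside 8122 of 11129 expressed genes, and with TMM scaling 6 members, beside 5848 of 11127 genes. At least 2-fold lower at 5 days were Ifit1, Ifit3, Isg15, Oas3, Oasl2, Rsad2 and Rtp4, 7 of 38 members, against 3.43% of all genes, and 0 members were at least 2-fold higher, against 1.95%. With TMM scaling there were 8 lower, Oasl1 being added, against 4.89%, and 0 higher, against 0.585%. Without the length trend there were 9, with Oas2 as well, against 4.91%, and 0 higher, against 0.625%. This comparison does not use the 0-day library, and its ratios followed gene length less, with a Spearman correlation between length and log2 ratio of 0.15 across all genes and 0.27 across the members, against 0.50 and 0.66 at 5 days against 0 days. These correlations are across genes of the same libraries and are given as a description. The members just outside 2-fold at 5 days against 3 days were Oasl1 (-0.84) and Oas2 (-0.76), and the member just inside was Ifit3 (-1.04). Late neutrophil markers had a median log2 ratio of -1.66 in the same comparison, and their part in it was not tested.

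**Figure D2:**
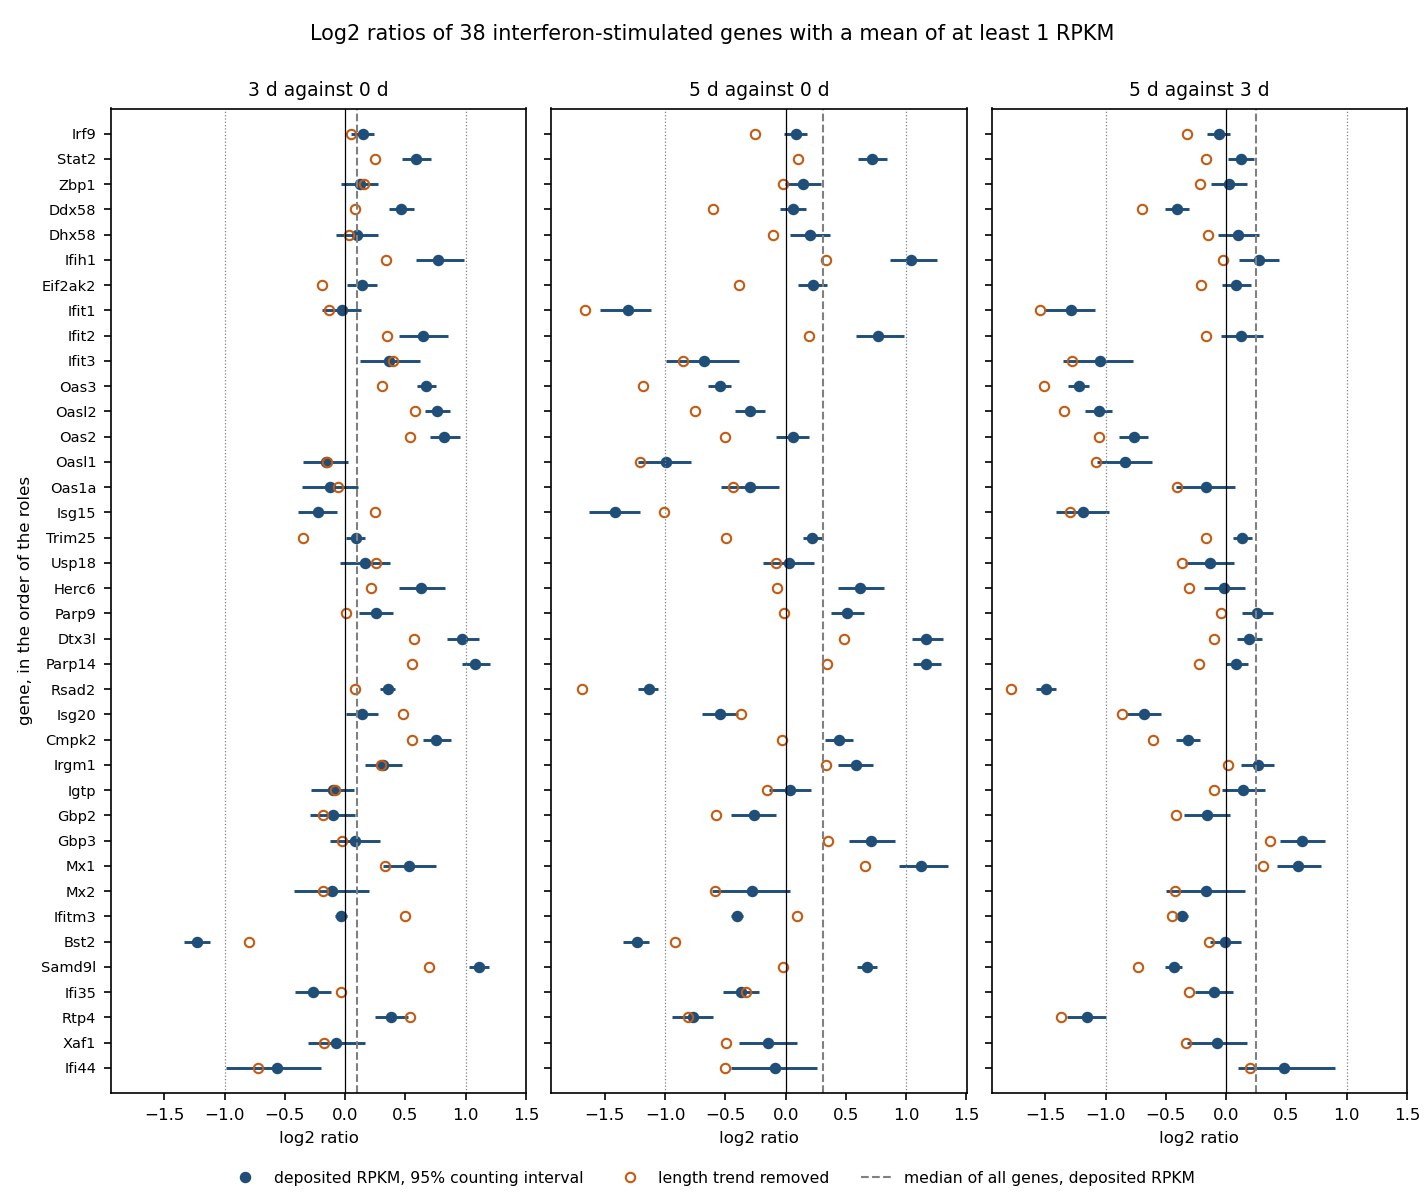
Log2 ratio of each of the 38 expressed members (rows) in the 3 comparisons (panels). Filled points are deposited RPKM with the 95% counting interval, open points are values without the length trend, the dashed line is the median of all genes and the dotted lines mark 2-fold; at 5 days against 3 days 7 filled points lie left of the 2-fold line and 0 lie right of it.

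Members were most often highest at 3 days once the libraries were scaled to each other. With TMM scaling 21 of 38 members (55.3%) had their highest level at 3 days, against 21.7% of all genes, and 5 (13.2%) had it at 5 days, against 38.7%. With deposited RPKM, 13 of 38 (34.2%) were highest at 3 days, against 13.6% of all genes, 11 at 0 days and 14 at 5 days. In both scalings 2 members (5.26%) had their lowest level at 3 days, against 28.9% of all genes with deposited RPKM and 23.1% with TMM scaling. With 1 library at 3 days, a difference between mice and a difference between time points cannot be told apart.

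Length divided the members as it divided all genes. At 5 days against 0 days the median log2 ratio was -0.47 for the 10 members shorter than 2000 bases, 0.05 for 18 members of 2000 to 4000 bases and 0.64 for the 10 longer ones. The corresponding medians of all genes were -0.11, 0.39 and 0.70. In this comparison the members thus lay below genes of their own length in each class, and the long genes Dtx3l, Parp14, Ifih1 and Samd9l differed from the trend by 0.48, 0.35, 0.33 and -0.02. Rsad2 and Oas3, at 3785 and 4718 bases, are longer than most members and differed from it by -1.69 and -1.19. At 5 days against 3 days the medians of the members were -0.27, -0.07 and 0.09, against 0.17, 0.27 and 0.30. At 3 days against 0 days they were 0.04, 0.12 and 0.65, against -0.26, 0.14 and 0.43, so that the short and the long members lay above genes of their length.

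**Figure D3:**
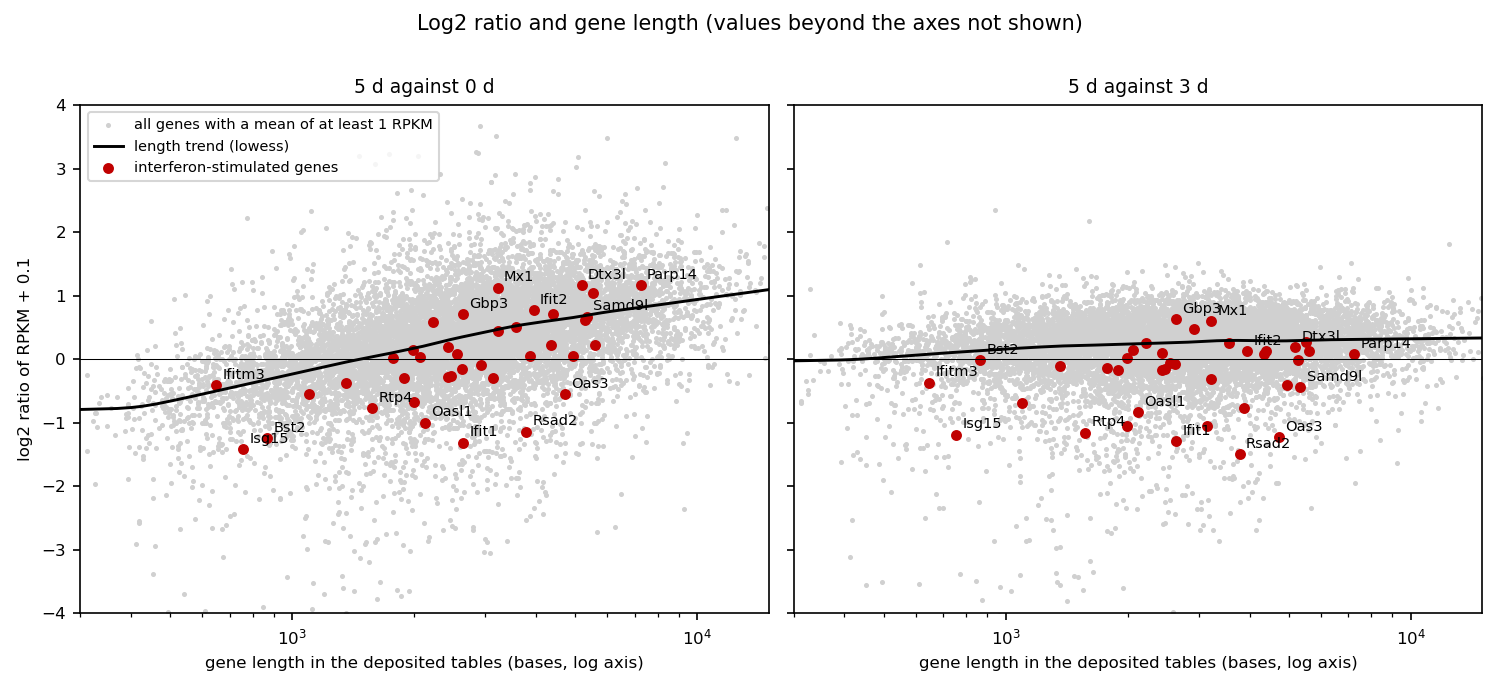
Log2 ratio of RPKM + 0.1 against gene length (log axis) for all expressed genes (grey), their lowess trend (line) and the members (red), at 5 days against 0 days and at 5 days against 3 days. Isg15, Ifit1, Rsad2, Oas3 and Oasl1 lie below the trend in both panels, and Mx1 and Gbp3 lie above it.

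The members with the response element letters in their promoter were compared with those without. The median log2 ratio at 5 days against 0 days was -0.28 over 16 members with the letters and 0.08 over 13 members without, and -0.51 and -0.33 without the length trend. The 4 members at least 2-fold lower, Bst2, Ifit1, Isg15 and Rsad2, all had the letters, and without the length trend the lower members numbered 4 with the letters and 1 without (Oasl1), beside 5.84% of all genes lower with deposited RPKM and 7.56% without the length trend. The members at least 2-fold lower at 5 days against 3 days numbered 5 with the letters and 1 without, and 5 and 2 without the length trend, beside 3.43% and 4.91% of all genes. Higher members had them as well: Ifih1, Gbp3, Irgm1 and Stat2 carry the letters and were higher at 5 days than at 0 days.

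Upstream of the members, the interferon ligands were scarce and lower in the LECT2 libraries. Of 22 ligand symbols listed, some of them older names of the same gene, 4 had a row. Ifnb1, the first type I interferon made in a response, had 31, 11 and 0 reads, or 2.59, 0.943 and 0 RPKM. Its 0-day level was 10.3-fold above a floor of 3 reads in the 5-day library (0.251 RPKM). That ratio leaves out the counting error of the 31 reads. Ifng, the interferon of T and NK cells, had 119, 36 and 31 reads, or 6.35, 1.97 and 1.66 RPKM, with log2 ratios of -1.64 at 3 days (95% interval -2.27 to -1.14) and -1.88 at 5 days (95% interval -2.56 to -1.36) against 0 days. Ifnk had 10, 2 and 2 reads and Ifna2 had 2, 0 and 0 reads, for which no fold is given. Both ligands with more reads were lower already at 3 days. At that time 26 of the 38 expressed members were above and 12 below their 0-day level, beside 6423 and 4706 of all 11129 expressed genes. The relation between ligands and members was not tested.

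Most receptor and signal transducer genes were expressed. The 6 receptor genes had a median log2 ratio of 0.23 at 5 days against 0 days (-0.07 with TMM scaling). None was past 2-fold, beside 15.5% of all genes higher and 5.84% lower. Il28ra, the interferon-lambda receptor chain, was at 4.86, 10.4 and 5.17 RPKM. It was the only receptor gene at least 2-fold higher at 3 days against 0 days (log2 ratio 1.08, 95% interval 0.90 to 1.30), beside 4.08% of all genes. Without the length trend its log2 ratio was 0.78, and it is named after its values were seen. Ifngr1 was at 80.01 (0 days), 80.6 (3 days) and 98.1 (5 days) RPKM, Ifnar2 at 40.2, 42.0 and 51.3 RPKM and Ifngr2 at 37.2, 45.2 and 48.5 RPKM. Of 10 transducers, 8 were expressed, and Irf3 and Irf5, which have 2 rows each, were below 1 RPKM. Of the 8, 2 were at least 2-fold higher at 5 days against 0 days and 1 was lower, beside 15.5% and 5.84% of all genes. The kinase genes Tyk2, at 9.76, 16.9 and 25.3 RPKM, and Jak2, at 14.1, 21.3 and 28.5 RPKM, were the higher ones, and both were within 2-fold without the length trend, while with TMM scaling Tyk2 stayed past it (1.06) and Jak2 did not (0.70). Irf1, a transcription factor induced early by interferons, was the lower one, at 91.3, 68.3 and 42.5 RPKM, with a log2 ratio of -1.10 (95% interval -1.20 to -1.01) and -1.32 without the length trend.

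Of 13 negative regulators, 1 was at least 2-fold lower at 5 days against 0 days and 1 was higher, beside 5.84% and 15.5% of all genes. The lower one was Socs3, the feedback inhibitor of Jak kinases, with 29.8, 22.6 and 8.32 RPKM and a log2 ratio of -1.83 (95% interval -2.02 to -1.67). Nlrc5 was at least 2-fold higher, at 1.04 (95% interval 0.90 to 1.21), but not with TMM scaling (0.74) or without the length trend (0.24), and the list median of 0.49 was 0.19 and 0.03 in these settings. Of 12 genes that sense nucleic acid or relay its signal, 4 were at least 2-fold higher at 5 days (Tlr9, Ikbke, Mavs and Mb21d1) and 0 were lower, with a list median of 0.86, beside 15.5% of all genes higher. With TMM scaling 2 were at least 2-fold higher (7.13% of all genes) and the median was 0.55. Without the length trend 1 was higher (5.03% of all genes) and the median was 0.37. Tlr9, the endosomal DNA receptor, was at 4.79, 12.2 and 17.4 RPKM and stayed past 2-fold without the length trend, with 1.33.

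A wider list of other interferon-induced genes also split, with 10 of 55 at least 2-fold higher and 6 lower at 5 days against 0 days, and a median of 0.45 over 54 genes, beside 15.5% of all genes higher and 5.84% lower. With TMM scaling there were 5 higher and 9 lower, beside 7.13% and 10.1% of all genes, and the median was 0.14. Without the length trend there were 7 and 7, beside 5.03% and 7.56%, with a median of 0.19. Slfn4, a schlafen gene of myeloid cells, had the shape of Oas3, at 96.6, 179 and 39.2 RPKM, and so did Slfn1, at 101, 147 and 48.9 RPKM. Ube2l6, the conjugating enzyme of Isg15, was at 227, 195 and 100.4 RPKM, lower at 5 days as Isg15 was, with a log2 ratio of -1.18 (95% interval -1.25 to -1.11). Ifitm6, which lies in the cluster of Ifitm3, was at 1775, 1462 and 495 RPKM. Ms4a6d, Trim14 and Slfn9 were higher, with log2 ratios of 1.93, 1.91 and 2.67. Lower by at least 2-fold at 5 days against 3 days were 5 genes of this list (Slfn4, Slfn1, Ifitm6, Oas1g and Ddx60, of which Oas1g and Ddx60 are named after their values were seen), and 2 were higher (Ms4a6d and Slfn9), beside 3.43% and 1.95% of all genes. TMM scaling and removal of the length trend each gave 8 lower and 0 higher, beside 4.89% and 4.91% of all genes lower. Of 14 interferon-gamma GTPases and targets, Cxcl10, the chemokine induced by both types of interferon, was lower at each time, with 105.5, 49.7 and 6.79 RPKM and a log2 ratio of -3.94 at 5 days against 0 days (95% interval -4.24 to -3.69). Irgm2 was at least 2-fold higher (1.12, but 0.82 with TMM scaling and 0.60 without the length trend), the immunoproteasome genes Psmb8 and Psmb9 and the peptide transporter Tap1 were within 2-fold. The list median was 0.21, and -0.08 with TMM scaling and -0.12 without the length trend, and its 1 gene higher and 1 lower of 14 stand beside 15.5% and 5.84% of all genes.

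**Figure D4:**
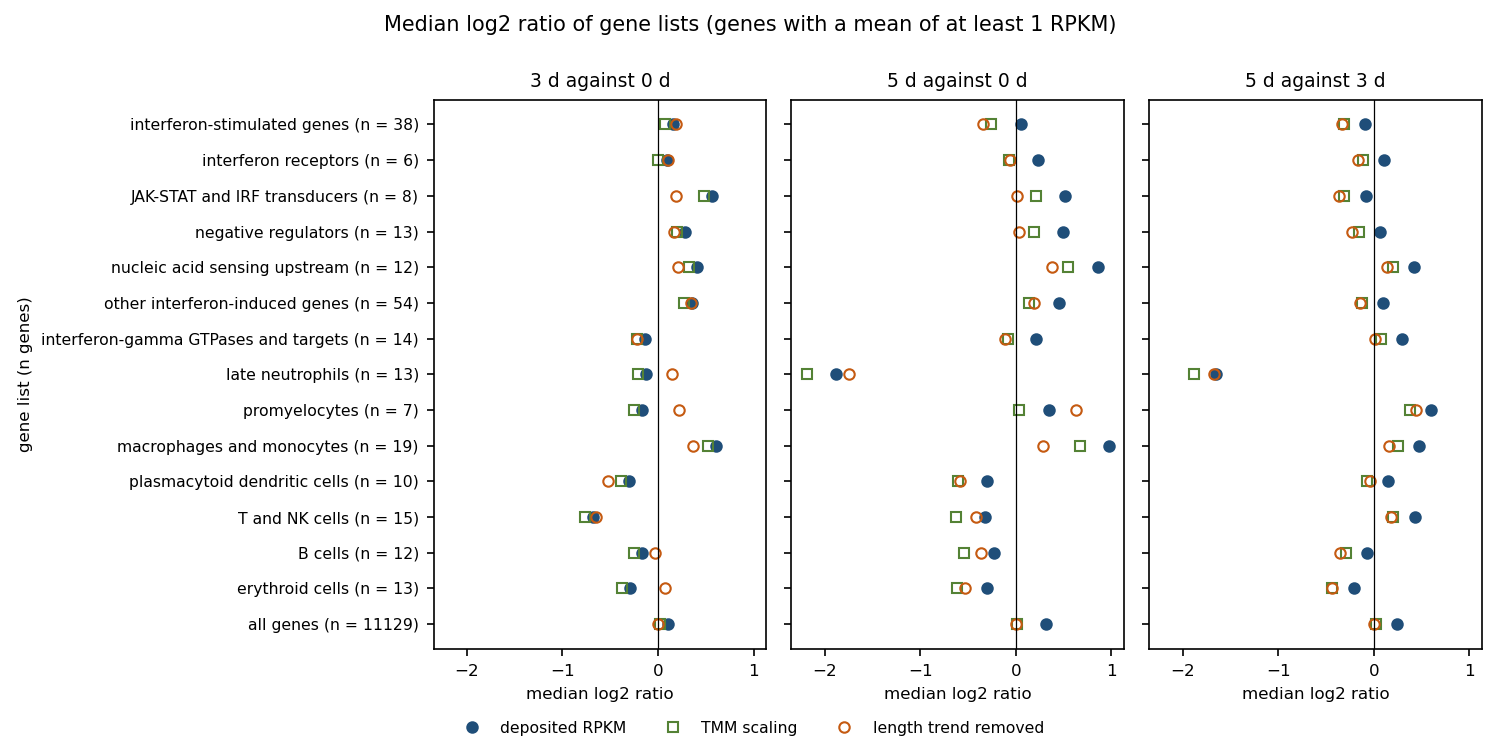
Median log2 ratio of the members, of the pathway lists, of the marker lists and of all genes (rows; n is the number of expressed genes) in the 3 comparisons, with deposited RPKM (filled), TMM scaling (squares) and the length trend removed (open circles). With deposited RPKM at 5 days against 0 days the late neutrophil markers lie at -1.88 and the members at 0.05. The members lie below all genes at 5 days against 3 days in each setting.

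Markers of marrow cell types moved over the same libraries, and because BM was measured in bulk, fewer cells of a type and less RNA per cell cannot be told apart. Late neutrophil markers had a median log2 ratio of -0.12 at 3 days against 0 days, -1.88 at 5 days against 0 days and -1.66 at 5 days against 3 days, with 12 of 13 genes at least 2-fold lower in each of the last 2 comparisons, beside 5.84% and 3.43% of all genes. Their summed level was 150274, 116334 and 41648 RPKM, so they were lower in the comparisons in which Rsad2, Isg15 and Ifit1 were lower. Macrophage and monocyte markers had medians of 0.61, 0.97 and 0.47, a summed level of 827, 1064 and 1460 RPKM, and 9 of 19 genes at least 2-fold higher and 1 lower (Cd14) at 5 days against 0 days, beside 15.5% of all genes higher. With TMM scaling the 5-day median was 0.67 with 6 genes higher (7.13% of all genes), and without the length trend 0.28 with 7 (5.03% of all genes). Promyelocyte markers had medians of -0.17, 0.35 and 0.60 and a summed level of 2763, 2518 and 4088 RPKM. B cell markers had medians of -0.17, -0.23 and -0.07, and erythroid markers -0.29, -0.30 and -0.21, with summed levels of 2498, 2022 and 1861 RPKM and of 6114, 4851 and 2178 RPKM. With TMM scaling the medians at 5 days against 0 days were 0.04 for promyelocyte, -0.54 for B cell, -0.61 for erythroid and -0.63 for T and NK cell markers. T and NK cell markers had medians of -0.68, -0.32 and 0.43 and a summed level of 302, 176 and 245 RPKM, beside which Ifng was lower at 3 and 5 days. The part of these markers in the levels of the members was not tested.

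Markers of plasmacytoid dendritic cells are given beside Bst2. Of the 10 expressed genes, 1 (Cox6a2) was at least 2-fold lower at 5 days against 0 days, beside 5.84% of all genes. The list median was -0.31 at 3 days and -0.30 at 5 days against 0 days and 0.15 at 5 days against 3 days. Cox6a2 was at 53.7, 23.2 and 25.9 RPKM, lower at 3 days and level from 3 to 5 days as Bst2 was. Without the length trend it was within 2-fold at 5 days against 0 days (-0.58), and Tcf4 was the lower gene (-1.35), beside 7.56% of all genes. With TMM scaling Cox6a2 and Klk1 were at least 2-fold lower at 5 days against 0 days, beside 10.1% of all genes, and the list median was -0.60. Of the 10 genes, 7 were below 0 at 3 days and 6 at 5 days against 0 days, beside 4706 and 3604 of all 11129 expressed genes. With TMM scaling 8 and 6 were below 0, beside 5434 and 5525 of 11127 genes. The 3 most abundant markers were not lower with deposited RPKM, with Spib at 171, 209 and 219 RPKM, Pld4 at 133, 150.1 and 212 RPKM and Irf8 at 111, 113 and 172 RPKM. The sum of all 11 genes was 637, 604 and 755 RPKM. These 3 genes gave most of that sum, so it does not describe the less abundant markers. No marker of the list was at 0 reads in a library, and their part in the level of Bst2 was not tested.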

How the data were processed

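RNA of flushed BM cells was sequenced by the authors as 3 libraries (oligo(dT) selection, TruSeq RNA kit), with quantitation by Cufflinks per the study's methods. The submitters' processing notes name mm8, and the aligner is not given in the sources used here. The deposited values used are whole read counts per gene and the RPKM that the authors computed from them, given in 3 pairwise tables. The tables also hold the authors' log2 ratios, p-values and false discovery rates, which were not used. Reads on genes were 15146983 to 15523952 per library. RPKM recomputed from the counts differed by more than 0.1% in 18, 14 and 0 rows at 0, 3 and 5 days, with at most 36 reads. Genes without reads, listed at 0.01 RPKM, were set to 0. Of symbols with several rows the highest was kept, and 28 rows without a symbol were left out.

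Log2 ratios used a pseudocount of 0.1, counts past 2-fold took genes with at least 1 RPKM in either library, medians took expressed genes (1 RPKM or more on average), and no fold is given against 3 reads or fewer. Each group is 1 library, so no test was made. Alternatives were a pseudocount of 1, TMM (edgeR 4.0.16) and median-of-ratios (DESeq2 1.42.0) scaling, removal of the length trend (lowess, span 0.3, statsmodels 0.14.6), the sum of rows, a minimum of 5 RPKM and no minimum. The scripts (Python 3.11.15, pandas 2.3.3, scipy 1.17.1, R 4.3.3) were tested on simulated data. The members and lists were chosen with earlier results of these data known. All members are named. Log2 ratios with intervals are printed for those with a mean of at least 5 RPKM or a 2-fold change, and of other lists the 3 most abundant genes or those past 2-fold at 5 days against 0 days may be named.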

Additional observations from a re-analysis of the deposited data

How the results depend on the processing

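The sign of the members' median at 5 days against 0 days depended on the setting, but with deposited RPKM, both scalings and the length trend removed it lay below the median of all genes. The median log2 ratio of the members there (0.05) was -0.26 with TMM scaling, -0.25 with median-of-ratios scaling and -0.35 without the length trend, and the 4 members at least 2-fold higher became 0 in each of these 3 settings. At 5 days against 3 days the median (-0.09) was -0.31, -0.30 and -0.33. At 3 days against 0 days, the 2 members at least 2-fold higher became 1 with TMM scaling, 1 with median-of-ratios scaling, 1 with a pseudocount of 1 and 0 without the length trend, and the 1 lower member became 0 without the length trend. By construction, TMM and median-of-ratios scaling shift all genes, and removal of the length trend shifts each gene according to its length. The counts of members at least 2-fold lower at 5 days stayed within 1.5 times their value, and neither the sum of rows, a minimum of 5 RPKM nor no minimum moved one of the 9 medians and counts. Of 117 single log2 ratios, 70 moved beyond their counting interval with TMM scaling, all downwards, 69 with median-of-ratios scaling, 86 without the length trend and 0 with a pseudocount of 1. No paired analysis was possible because there was 1 library per time point. Spread between mice could not be estimated.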
